A study of Homo sapiens with 4 samples.

Results

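The genes described here are 10 features of metal handling: the metallothionein genes MT2A, MT1E, MT1X, MT1F, MT1G and MT1M, the metallothionein pseudogene MT1P3, and 3 zinc regulators, the transcription factor gene MTF1 and the zinc transporter genes SLC30A1 and SLC39A10. They were taken by symbol from the 60766 features of the series, and each symbol matched 1 row. The members were chosen by their FPKM in knockdown and control libraries, the same values that are described here, so their differences between the groups are descriptions and support nothing. RNA was sequenced from HCT116 cells, which are an established line grown out of a human colon carcinoma, and 4 libraries were split evenly between the groups. In the knockdown libraries a short hairpin targeted ARID1A, which encodes a DNA-binding subunit of SWI/SNF chromatin remodellers, and the other libraries carried the genotype label control. Neither the hairpin sequence, nor the control vector, nor whether replicates came from different cultures is stated in the labels. The p-values therefore reflect the spread between these libraries alone, and that spread may be technical. On GRCh38, MT2A (chr16:56608584-56609497), MT1E (chr16:56625475-56627112), MT1M (chr16:56632659-56633981), MT1F (chr16:56657731-56660698) and MT1X (chr16:56682470-56684196) lie on the plus strand and MT1G (chr16:56666731-56668065) on the minus strand. MTF1 (chr1:37809574-37859592) and SLC30A1 (chr1:211571568-211579161) lie on the minus strand of chromosome 1, and SLC39A10 (chr2:195575977-195737702) on the plus strand of chromosome 2. The stated purpose concerned ARID1A and immune functions, not metals.

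Metallothioneins are small cysteine-rich proteins that bind zinc, copper and cadmium, buffer free zinc in the cell and take part in defence against oxidants. Their genes lie in a cluster on chromosome 16 and respond to zinc through MTF1, a zinc-sensing factor that binds metal response elements in their promoters. The same factor is known to raise SLC30A1, which exports zinc from the cell, and in mouse and zebrafish to hold down SLC39A10, which imports it. Processed pseudogenes such as MT1P3 are copies of spliced messenger RNAs that were inserted elsewhere in the genome.

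Values are FPKM, fragments scaled to transcript length and to the library's mapped total, and log2 changes are knockdown minus control of log2(FPKM + 1), which understates the change of low genes. Totals estimated from the steps between low values were 75750000 and 74750000 fragments in the knockdown libraries and 68750000 and 70750000 in the control libraries. Of 13605 features with a mean of at least 1 FPKM, 37.1% passed a limma Benjamini-Hochberg adjusted p of 0.05, 18.2% higher and 18.9% lower in the knockdown. The target ARID1A was at 7.05 and 6.13 FPKM in the knockdown libraries, against 11.1 and 11.4 FPKM in the control libraries. Its log2 change was -0.69 (SE 0.077; limma adjusted p = 0.00438). By exact permutation, two-sided, p was 0.333, which is the floor for groups of this size. Among 12 colon epithelial carcinoma markers 7 passed the filter, with 3 rises and 2 falls, while LGR5, CDX1, VIL1, CEACAM5 and CEACAM6 were under 1 FPKM in every library. All 10 leukocyte markers were under 1 FPKM in every library, with summed levels of 0.917 to 1.27 FPKM in the knockdown and 1.57 to 1.71 FPKM in the control, and 4 of them were at 0 throughout. Of 12 fibroblast and endothelial markers 11 were under 1 FPKM in every library, and the list summed to 6.94 to 7.13 FPKM in the knockdown and 4.73 to 5.56 FPKM in the control. The colon list summed to 4173 to 4324 FPKM in the knockdown and 3112 to 3221 FPKM in the control. Within it the epithelial adhesion gene EPCAM fell, at 144 ± 4.27 FPKM in the knockdown and 312 ± 0.233 FPKM in the control (SD, n = 2 each), as did CLDN7. The keratin genes KRT8, KRT18 and KRT19 rose, KRT8 being at 1433 ± 28.4 FPKM in the knockdown and 883 ± 15.6 FPKM in the control and KRT19 at 1334 ± 69.3 FPKM in the knockdown and 889 ± 34.0 FPKM in the control. Mitochondrial features held 6.04% and 5.65% of the summed FPKM in the knockdown libraries, against 4.35% and 4.29% in the control libraries, and the part of these shifts in the differences below was not tested.

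The sequences that bear on how reads are shared are those of MT1P3 and of the metallothioneins with signal. MT1P3 lies on the plus strand of chromosome 20 at chr20:35218009-35218185 (GRCh38), 177 bases in all, and its sequence is the GENCODE release 29 transcript. The coding sequences of MT1E, MT1F, MT2A and MT1X, each 186 bases and also from GENCODE release 29, follow with capitals at each base that differs from MT1P3 in a global alignment or is missing from it.
MT1P3: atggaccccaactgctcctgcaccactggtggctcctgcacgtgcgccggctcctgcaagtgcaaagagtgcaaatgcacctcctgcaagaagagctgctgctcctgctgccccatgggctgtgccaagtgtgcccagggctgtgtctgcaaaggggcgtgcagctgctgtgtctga
MT1E: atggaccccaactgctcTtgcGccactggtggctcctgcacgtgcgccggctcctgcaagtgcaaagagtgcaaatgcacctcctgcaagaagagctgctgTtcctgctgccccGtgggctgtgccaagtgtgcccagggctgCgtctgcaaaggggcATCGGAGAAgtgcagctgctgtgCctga
MT1F: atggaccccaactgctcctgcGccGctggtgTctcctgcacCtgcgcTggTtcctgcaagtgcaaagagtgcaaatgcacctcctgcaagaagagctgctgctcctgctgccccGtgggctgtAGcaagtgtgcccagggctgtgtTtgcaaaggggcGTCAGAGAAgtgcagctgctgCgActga
MT2A: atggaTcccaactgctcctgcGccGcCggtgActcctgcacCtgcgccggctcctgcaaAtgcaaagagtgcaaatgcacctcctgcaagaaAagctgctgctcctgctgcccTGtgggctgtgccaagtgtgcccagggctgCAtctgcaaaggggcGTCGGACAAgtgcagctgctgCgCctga
MT1X: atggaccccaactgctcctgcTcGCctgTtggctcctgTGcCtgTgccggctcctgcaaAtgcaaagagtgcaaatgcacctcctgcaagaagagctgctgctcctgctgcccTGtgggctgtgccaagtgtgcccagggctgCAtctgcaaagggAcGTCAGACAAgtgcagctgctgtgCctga
MT1E was the nearest of the 12 coding metallothioneins, with 6 mismatched bases and 1 stretch of 9 bases that MT1P3 lacks, an identity of 91.9%. MT1F had 12 mismatches, MT2A 14 and MT1X 15 beside the same gap. The pseudogene reads through 59 codons with 0 stop codons before the last, and 20 of them encode cysteine, as many as in each of the 6 coding members. Exact stretches differ more than identity does. The longest run that MT1P3 shares letter for letter with a coding member's transcript was 79 bases for MT1E, 64 for MT1G, 63 for MT1F, 55 for MT1M, 53 for MT1X and 32 for MT2A. Of the 128 windows of 50 bases in MT1P3, 30 occurred unchanged in an MT1E transcript, 15 in MT1G, 14 in MT1F, 6 in MT1M, 4 in MT1X and 0 in MT2A. Outside the members, the pseudogene MT1JP shared more with MT1P3 than MT1E did, with a run of 89 bases and 40 windows, and MT1L had a run of 65 bases and 16 windows. MT1JP was listed at 0 in every library. The parents resemble each other as closely. Coding identity ranged from 88.7% (MT1X with MT1F) to 95.2% (MT2A with MT1G), and MT1X and MT1G share a run of 96 bases, so the values of single metallothionein genes are uncertain wherever reads could be split between them.

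MT2A, the most abundant metallothionein here, was at 3193 and 3491 FPKM in the knockdown libraries, against 2975 and 2819 FPKM in the control libraries. Both knockdown libraries lay above both controls, and MT2A ranked 39 and 33 among all features in the knockdown libraries, against 49 and 57 in the control libraries. Its mean was 3342 ± 211 FPKM in the knockdown and 2897 ± 110 FPKM in the control (SD, n = 2 each), 15.4% higher, with a log2 change of 0.21 (SE 0.060). The gap between the group means, 445 FPKM, is larger than the 298 FPKM between the knockdown libraries and the 156 FPKM between the controls. In bulk RNA, a change in the number of cells with a transcript and a change in its level per cell cannot be told apart.
MT1E, which encodes a metallothionein of the same size, was at 471 and 497 FPKM in the knockdown libraries, against 431 and 454 FPKM in the control libraries. The groups did not overlap, and the means were 484 ± 18.0 FPKM in the knockdown and 443 ± 15.9 FPKM in the control (SD, n = 2 each), 9.39% higher, with a log2 change of 0.13 (SE 0.046). MT1X was at 344 and 363 FPKM in the knockdown libraries, against 328 and 321 FPKM in the control libraries. These groups did not overlap either, with means of 354 ± 13.6 FPKM in the knockdown and 325 ± 4.52 FPKM in the control (SD, n = 2 each), 8.998% higher, and a log2 change of 0.12 (SE 0.041). MT1F, a further metal-binding member, was at 12.8 and 17.6 FPKM in the knockdown libraries, against 14.1 and 15.0 FPKM in the control libraries. Its knockdown libraries lay on either side of both controls, so the sign of its log2 change of 0.04 (SE 0.15) depends on the library: it was -0.18 without knockdown replicate 2 and 0.26 without knockdown replicate 1.

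**Figure D1:**
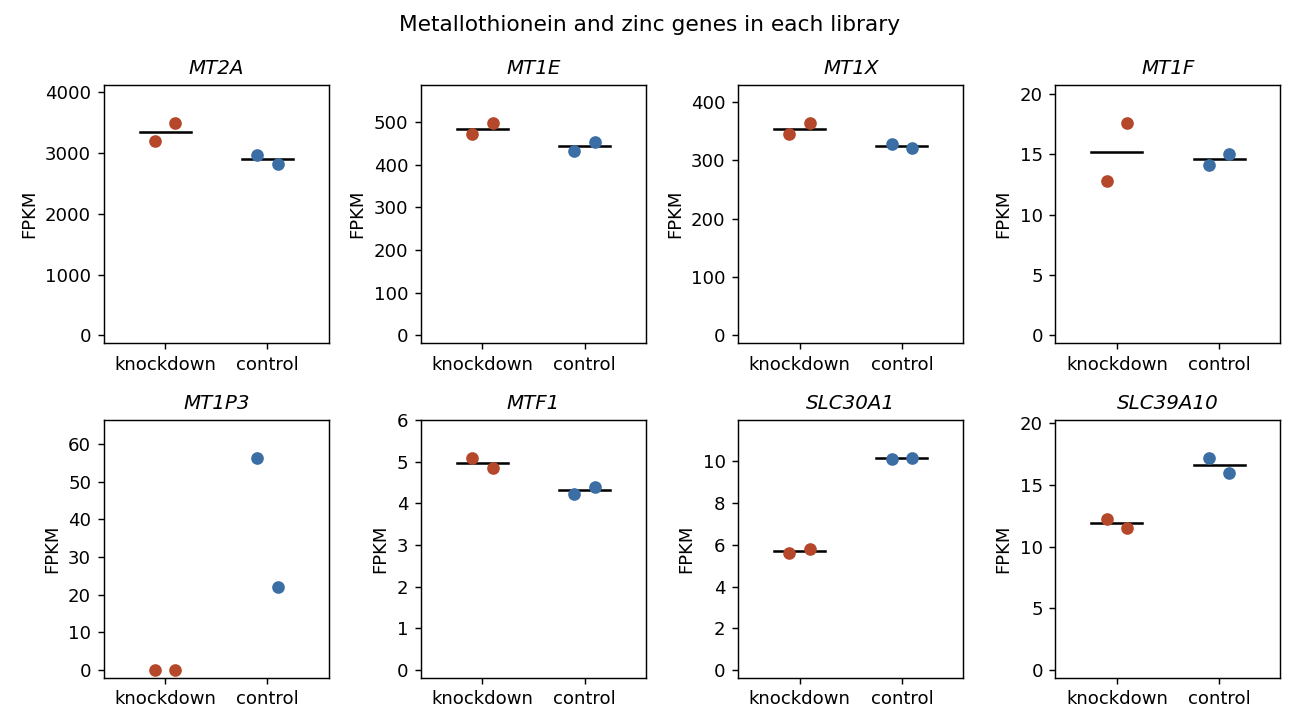
FPKM in each library of the 8 members above 0 in some library, on linear axes that start just below 0. The 2 knockdown libraries stand left of the 2 control libraries. Each point is 1 library and each bar the group mean (none is drawn for MT1P3). The groups separate upward for MT2A, MT1E, MT1X and MTF1, downward for MT1P3, SLC30A1 and SLC39A10, and overlap for MT1F.

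Across the members, 8 passed the filter of a mean of at least 1 FPKM, and 3 of these 8 were past the adjusted p of 0.05, all lower in the knockdown (MT1P3, SLC30A1 and SLC39A10), beside 18.9% of all tested features. In the other direction 0 of 8 were past it by limma, beside 18.2% of all tested features. Groups did not overlap for 7 of the 8, where 72.3% of all tested features behaved so. Of the 7, 4 were higher and 3 lower, beside 35.8% and 36.5% of all tested features. MT1P3, listed at 0 in the knockdown, passed the filter through the control libraries alone. Its direction in these counts was thus fixed by how it entered, and supports nothing. None of MT2A, MT1E, MT1X and MT1F was past the threshold. MT2A was near the line and passed without knockdown replicate 1 (limma adjusted p = 0.0368), but not without knockdown replicate 2 (0.130), control replicate 1 (0.149) or control replicate 2 (0.266). The pseudocount, the filter and the scaling also moved these calls. MT2A was past the threshold with a pseudocount of 0.1 (limma adjusted p = 0.0483) and with a filter of 5 FPKM (0.0423). MT2A and MT1X were both past it after median-ratio scaling (0.0369 and 0.0494), while under quantile normalization MT2A was past it (0.0233) and MT1X and MT1E had log2 changes of 0.02 and 0.03.

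MT2A made up 79.4% and 79.9% of the summed FPKM of the member metallothioneins in the knockdown libraries, against 78.2% and 77.6% in the control libraries. MT1E made up 11.7% and 11.4% in the knockdown libraries, against 11.3% and 12.5% in the control libraries, and these ranges overlap. The MT1E level was 1.37 times that of MT1X in each knockdown library, against 1.32 and 1.41 times in the control libraries. The share of each library's summed FPKM held by the member metallothioneins, MT1P3 included, was 0.511% and 0.536% in the knockdown libraries, against 0.483% and 0.464% in the control libraries.

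MT1G and MT1M, the remaining coding members, were listed at 0 in all 4 libraries. The series holds 20 features with a metallothionein symbol, and 12 of them were listed at 0 in every library, among them MT1A, MT1H, MT3 and MT4. An exact 0 in a table without counts can be a failed estimate, and MT1G shares 96 bases of coding sequence with MT1X, so these entries are given as listed and not as absence of the RNA. Of the 13 family features that are not members, 3 had a value above 0. MT1B was at 0.622 and 0.692 FPKM in the knockdown libraries and listed at 0 in both controls. The pseudogene MT1L was at 0.355 FPKM in knockdown replicate 2 and listed at 0 in the other libraries. The pseudogene MT1DP was at 9.38 FPKM in control replicate 2 and listed at 0 in control replicate 1 and in both knockdown libraries, so 1 library carries all of its signal.

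MT1P3 was listed at 0 in both knockdown libraries, against 56.3 and 21.97 FPKM in the control libraries. The groups do not overlap, but the controls differ from each other by 34.3 FPKM. No fold is given against a group listed at 0. With the estimated totals and the 177 bases of the feature, its values in the control libraries stand for at most 685 and 275 fragments, and fewer if the authors' program shortened the length for fragment size. The fragment length that best placed low values on whole fragments was 275 to 300 bases, which is longer than MT1P3 itself. Short features varied widely within a group: of 87 tested features with a locus of up to 300 bases and signal in the controls, 59.8% differed at least 2-fold between the control libraries, against 0.956% of 13500 longer features. Between the knockdown libraries these shares were 56.2% of 89 short features and 1.04% of 13498 longer ones. MT1P3 was the only feature listed at 0 in both knockdown libraries that had at least 10 FPKM in both controls. It was chosen on these values, so that count is a description and supports nothing. The opposite pattern was shown by 1 feature, the short pseudogene ATP5MDP1. MT1P3 also overlaps annotated exons of MMP24OS, a gene on the other strand, and without a stated strand setting reads of the pair cannot be told apart. MMP24OS was at 23.7 and 24.1 FPKM in the knockdown libraries, against 23.2 and 22.01 FPKM in the control libraries (log2 change 0.08, limma adjusted p = 0.242).

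Whether reads of the pseudogene and of its relatives trade off was examined library by library, since 4 libraries are too few for a correlation. The other member metallothioneins summed to 4021 and 4369 FPKM in the knockdown libraries, against 3748 and 3609 FPKM in the control libraries. The mean difference of 517 FPKM exceeds the 39.1 FPKM that MT1P3 averaged in the controls, and adding MT1P3 to the sum leaves a difference of 477 FPKM. The sum is mostly MT2A and differed by 139 FPKM between the controls and by more between the knockdown libraries, so an exchange of the size of MT1P3 could not be seen in it either way. Between the controls, MT1P3 and the other metallothioneins moved the same way, since replicate 1 was higher by 34.3 FPKM for MT1P3 and by 139 FPKM for the others together, with MT2A alone higher by 156 FPKM and MT1E lower. MT1P3 was 1.48% and 0.605% of the summed metallothionein FPKM in control replicates 1 and 2.

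Against MT1E, the coding gene nearest in sequence, the values did run opposite. Control replicate 1 had more MT1P3 and less MT1E than control replicate 2, and both knockdown libraries, with MT1P3 listed at 0, had more MT1E than either control. MT2A and MT1X were likewise higher in both knockdown libraries, so that order between the groups is not particular to MT1E. MT1E and MT1P3 together came to 471 and 497 FPKM in the knockdown libraries, against 488 and 476 FPKM in the control libraries. These sums overlap, with means of 484 ± 18.0 FPKM in the knockdown and 482 ± 8.38 FPKM in the control (SD, n = 2 each), a difference of 2.41 FPKM where MT1E alone differed by 41.5 FPKM. MT1X differed by 29.2 FPKM between the group means, less than the 39.1 FPKM that MT1P3 averaged in the controls. Adding MT1P3 would thus remove the rise of MT1X as well, so the loss of the gap is not particular to MT1E. The likeness of the MT1E sums holds per length only. MT1P3 is shorter than the MT1E transcripts, and with FPKM multiplied by annotated transcript length MT1P3 was 3.28% and 1.22% of MT1E in the control libraries, where the FPKM themselves gave 13.1% and 4.84%. A fragment therefore stands for more FPKM in MT1P3 than in MT1E. MT2A and MT1X did not show the opposite order between the controls: replicate 1 was higher for MT2A by 156 FPKM and for MT1X by 6.40 FPKM. MT1F and MT1DP ran opposite to MT1P3 between the controls, by -0.85 and -9.38 FPKM. The longest exact run shared with MT1P3 was 79 bases for MT1E, 63 for MT1F and 33 for MT1DP, which ran opposite. It was 53 bases for MT1X and 32 for MT2A, which did not. The part of read assignment in these differences was not tested.

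**Figure D2:**
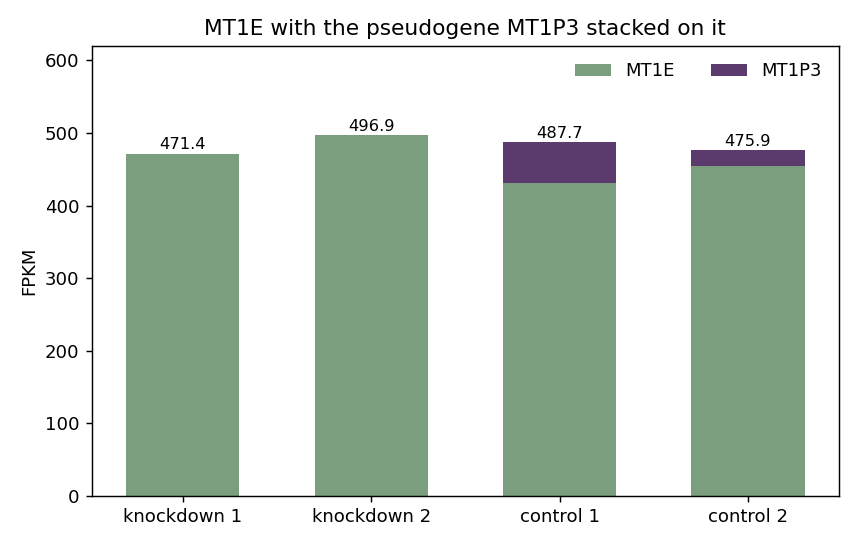
Stacked bars of FPKM from 0 in each library, MT1E below and the pseudogene MT1P3 on top, with the sum printed above the bar; knockdown libraries stand left of control libraries. The sums of 471, 497, 488 and 476 FPKM overlap between the groups, while MT1P3 appears in the control bars only.

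Of the zinc regulators, MTF1 was at 5.09 and 4.84 FPKM in the knockdown libraries, against 4.22 and 4.40 FPKM in the control libraries. Both knockdown libraries lay above both controls, with means of 4.96 ± 0.177 FPKM in the knockdown and 4.31 ± 0.127 FPKM in the control (SD, n = 2 each) and a log2 change of 0.17 (SE 0.069). SLC30A1, which encodes the zinc exporter of the plasma membrane, was at 5.59 and 5.81 FPKM in the knockdown libraries, against 10.1 and 10.2 FPKM in the control libraries. Its replicates lay close together and the groups far apart, with means of 5.70 ± 0.157 FPKM in the knockdown and 10.1 ± 0.0298 FPKM in the control (SD, n = 2 each), a ratio of 0.562 and a log2 change of -0.73 (SE 0.056). Its log2 change stayed between -0.76 and -0.71 when any 1 library was left out. SLC39A10, which encodes a zinc importer, was at 12.2 and 11.5 FPKM in the knockdown libraries, against 17.2 and 15.95 FPKM in the control libraries. The groups did not overlap, with means of 11.9 ± 0.488 FPKM in the knockdown and 16.6 ± 0.871 FPKM in the control (SD, n = 2 each), a ratio of 0.717 and a log2 change of -0.45 (SE 0.061). Without control replicate 1 it was no longer past the threshold (limma adjusted p = 0.0515). The exporter and the importer were thus both lower in the knockdown, while MTF1, MT2A, MT1E and MT1X were each somewhat higher in both knockdown libraries.

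MT2A and SLC30A1 are textbook targets of MTF1, so their promoters and that of MT1X are shown from RefSeq (GRCh38.p14), as the 250 bases before the gene start on the gene's strand. Capitals mark the core of the metal response element, TGCACNC or TGCGCNC on either strand, and no matches overlap. The windows are chr16:56608334-56608583 on the plus strand for MT2A, chr16:56682220-56682469 on the plus strand for MT1X, and chr1:211579162-211579411 on the minus strand for SLC30A1.
MT2A: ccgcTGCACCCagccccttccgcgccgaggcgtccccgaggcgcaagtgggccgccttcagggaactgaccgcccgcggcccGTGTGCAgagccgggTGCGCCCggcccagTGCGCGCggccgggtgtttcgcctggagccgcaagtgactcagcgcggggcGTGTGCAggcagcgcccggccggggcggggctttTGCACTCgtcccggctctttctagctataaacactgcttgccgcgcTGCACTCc
MT1X: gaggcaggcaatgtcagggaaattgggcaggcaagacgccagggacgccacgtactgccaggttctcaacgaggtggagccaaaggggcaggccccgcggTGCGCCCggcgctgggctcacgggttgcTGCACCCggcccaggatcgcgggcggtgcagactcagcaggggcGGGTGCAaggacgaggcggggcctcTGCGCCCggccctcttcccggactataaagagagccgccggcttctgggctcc
SLC30A1: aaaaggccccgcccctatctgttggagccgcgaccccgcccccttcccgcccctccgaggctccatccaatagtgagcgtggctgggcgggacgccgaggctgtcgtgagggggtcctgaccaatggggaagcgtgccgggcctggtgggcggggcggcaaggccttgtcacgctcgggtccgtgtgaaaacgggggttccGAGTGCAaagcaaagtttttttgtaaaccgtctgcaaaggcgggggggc
MT2A held 7 matches, MT1X 4 and SLC30A1 1, while the window of MTF1 and both windows listed for SLC39A10 held 0. The SLC39A10 windows (chr2:195656708-195656957 and chr2:195656976-195657225) lie inside the locus given above for that gene. The bases before the start of that locus were not searched. Of 35116 RefSeq promoter windows of the same length, 24.8% held at least 1 match, 0.370% at least 4 and 0.0513% at least 6. The log2 changes were 0.21 for MT2A (7 matches), 0.12 for MT1X (4), -0.73 for SLC30A1 (1), 0.17 for MTF1 (0) and -0.45 for SLC39A10 (0). Whether matches bear on these changes was not tested. A match is a stretch of letters and not a site shown to be bound. Promoter windows were found for 5 of the 10 members, and MT1E, MT1F, MT1G, MT1M and MT1P3 were not matched.

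The other zinc transporters were set beside these members, and here and in the lists that follow the counts stand beside 18.2% of all tested features higher and 18.9% lower in the knockdown. Of the 9 other SLC30A exporters 6 passed the filter, with 0 rises and 3 falls by limma and a median log2 change of -0.17 where the median of all tested features was -0.003. SLC30A3, a vesicle transporter, was at 5.71 ± 0.379 FPKM in the knockdown and 7.48 ± 0.719 FPKM in the control. SLC30A5 and SLC30A6 encode proteins that pair to load zinc into the secretory pathway. SLC30A5 was at 29.3 ± 0.385 FPKM in the knockdown and 35.7 ± 2.12 FPKM in the control, and SLC30A6 at 10.7 ± 0.458 FPKM in the knockdown and 12.8 ± 0.223 FPKM in the control (SD, n = 2 each). These log2 changes of -0.34, -0.28 and -0.23 were each smaller than the -0.73 of SLC30A1. The count of 3 was 1 without control replicate 1, where SLC30A5 was still called, and 0 without any 1 of the other libraries. Of the 13 other SLC39A importers 10 passed the filter, with 3 rises, 2 falls and a median log2 change of 0.001.
SLC39A3, another importer of the plasma membrane, was at 20.5 ± 0.920 FPKM in the knockdown and 30.3 ± 0.399 FPKM in the control (log2 change -0.55, limma adjusted p = 0.00254), and its call held without any 1 library. SLC39A13 and SLC39A9, both of which can move zinc into the cytosol from inner compartments, rose. SLC39A13 was at 16.3 ± 0.641 FPKM in the knockdown and 13.2 ± 0.289 FPKM in the control, and SLC39A9 at 28.0 ± 0.546 FPKM in the knockdown and 23.4 ± 0.201 FPKM in the control. SLC39A7 also rose and SLC39A14 fell, and both are named after their values were seen. The importer count was 0 higher and 1 lower without control replicate 1 or 2, and 2 higher and 1 lower without knockdown replicate 1 or 2.

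**Figure D3:**
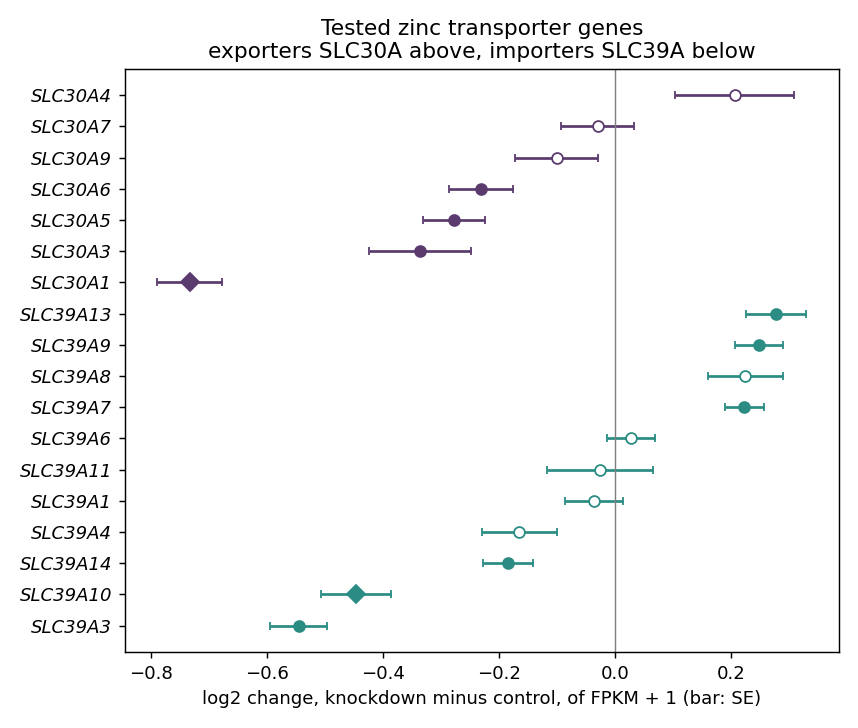
Log2 change (knockdown minus control, FPKM + 1) with its SE for each tested zinc transporter gene, exporters above and importers below; diamonds are the members SLC30A1 and SLC39A10, filled circles other genes past a limma adjusted p of 0.05 and open circles those not past it. SLC30A1 lies lowest of the exporters at -0.73, and SLC39A3 (-0.55) and SLC39A10 (-0.45) lowest of the importers.

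Other metal and metallothionein-related lists gave the surroundings of the members. A list of 14 genes joined partners of MTF1, such as SP1 and EP300, with other metal response genes, and 12 passed the filter, with 6 rises, SP1 among them, and 1 fall, that of HIF1A. HMOX1, the heme-degrading enzyme gene that metals and oxidants raise, was at 75.1 ± 2.27 FPKM in the knockdown and 21.5 ± 0.00721 FPKM in the control (SD, n = 2 each; log2 change 1.76, limma adjusted p = 2.08e-04). The thioredoxin reductase gene TXNRD1 was at 179 ± 5.32 FPKM in the knockdown and 117 ± 1.70 FPKM in the control and GCLC, which starts glutathione synthesis, at 36.05 ± 2.42 FPKM in the knockdown and 24.7 ± 0.990 FPKM in the control. These 3 calls held without any 1 library, and each of the 3 had a larger log2 change than any coding metallothionein. The redox list, which also holds TXNRD1 and GCLC, had 20 tested, 9 rises and 1 fall, that of GSS, with the glutathione reductase gene GSR at 106 ± 1.77 FPKM in the knockdown and 56.0 ± 0.656 FPKM in the control and PRDX1 at 1324 ± 5.22 FPKM in the knockdown and 885 ± 16.6 FPKM in the control. Without control replicate 1 the count for MTF1 partners and metal response was 3 higher and 0 lower and the redox count 5 higher and 0 lower, and without control replicate 2 the redox count was also 5 and 0.

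Among iron genes 16 were tested, with 6 higher and 1, PCBP2, lower, and among copper genes 17, with 5 higher and 1 lower. These lists are not separate from those above: HMOX1 is also among the iron rises, and SOD1 is counted in both the copper and the redox rises. STEAP3, not past the threshold, is named because the iron and copper lists share it. The ferritin heavy chain gene FTH1 was at 6388 ± 270 FPKM in the knockdown and 4398 ± 75.3 FPKM in the control and the mitochondrial iron importer gene SLC25A28 at 36.1 ± 0.169 FPKM in the knockdown and 18.04 ± 0.2499 FPKM in the control. CUTC, linked to copper handling, was at 77.6 ± 0.488 FPKM in the knockdown and 29.6 ± 0.586 FPKM in the control (log2 change 1.36, limma adjusted p = 2.91e-04). COMMD1, which takes part in copper export, was at 38.4 ± 3.97 FPKM in the knockdown and 24.9 ± 0.172 FPKM in the control, and the metalloreductase gene STEAP2 at 3.61 ± 0.411 FPKM in the knockdown and 6.02 ± 0.308 FPKM in the control. The call of COMMD1 was lost without control replicate 1 (limma adjusted p = 0.0517), and that of STEAP2 without control replicate 1 (0.0645) or 2 (0.0517). The other copper genes that rose were MEMO1, COX17 and SOD1, named after their values were seen. The copper count was 2 higher and 0 lower without control replicate 1, and the iron count 5 higher and 0 lower without either control.

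Glucocorticoids also raise metallothionein genes, so genes of that response were listed. In this list 11 passed the filter, with 0 rises and 6 falls by limma and a median log2 change of -0.19. TSC22D3, a glucocorticoid-induced leucine zipper gene, was at 9.49 ± 0.629 FPKM in the knockdown and 24.8 ± 2.48 FPKM in the control (SD, n = 2 each; log2 change -1.30, limma adjusted p = 0.00129), and its call held without any 1 library. GADD45B was at 18.0 ± 2.33 FPKM in the knockdown and 25.3 ± 0.241 FPKM in the control and SGK1 at 2.79 ± 0.592 FPKM in the knockdown and 4.29 ± 0.340 FPKM in the control. GADD45B lost its call without control replicate 1 or 2 (limma adjusted p = 0.0910 and 0.0971), and SGK1 without those (0.117 and 0.181) or knockdown replicate 2 (0.115). The count of falls was 1 without control replicate 1 (with 1 rise), 1 without control replicate 2 and 3 without knockdown replicate 2. Around the metallothionein cluster on chromosome 16, 17 neighbours passed the filter, with 3 rises and 3 falls, counts close to the 18.2% and 18.9% of all tested features, so that they are not a result about the neighbours. DOK4 was at 18.6 ± 0.901 FPKM in the knockdown and 14.8 ± 0.608 FPKM in the control, and CPNE2 at 30.6 ± 1.10 FPKM in the knockdown and 37.7 ± 0.456 FPKM in the control. ARL2BP and OGFOD1 rose and NUDT21 fell, all named after their values were seen. The calls of DOK4, CPNE2, ARL2BP, OGFOD1 and NUDT21 were each lost without at least 1 of the libraries. Leaving out each library in turn gave 0 to 1 rises and 1 to 2 falls among these neighbours.

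**Figure D4:**
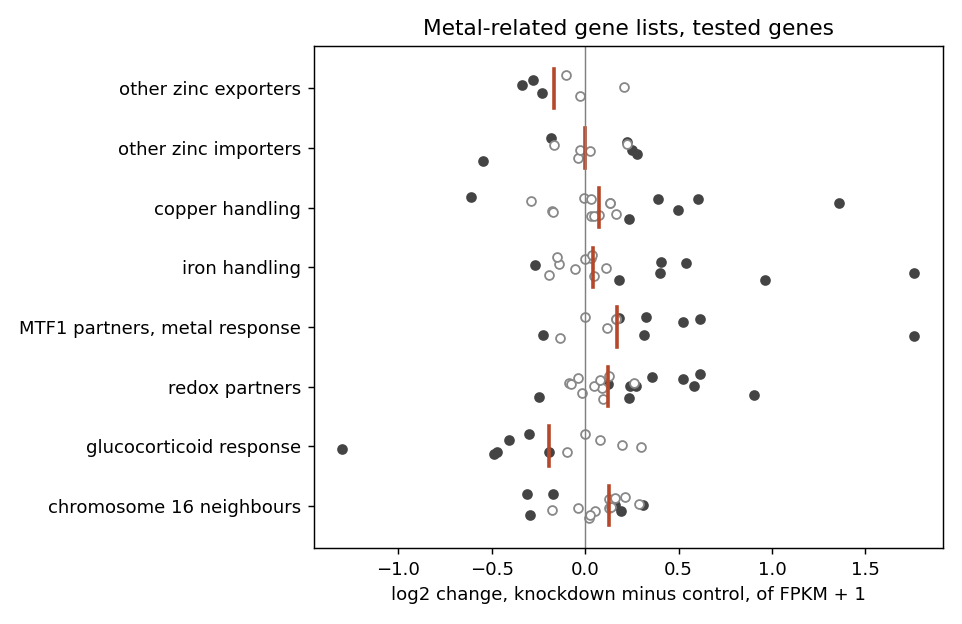
Log2 change (knockdown minus control, FPKM + 1) of each tested gene in 8 lists, without members; filled points passed a limma adjusted p of 0.05, open points did not, and the bar marks the list's median. HMOX1 lies at 1.76 and TSC22D3 at -1.30, and open points make up 5 of 12 genes in the list of MTF1 partners and metal response and 10 of 20 redox genes.

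The tested genes whose centred log2 profile over the 4 libraries lay nearest to that of MT2A were MIDN, CCDC28B, EEF2KMT, ATAT1 and KANK3, at Euclidean distances of 0.0083 to 0.0168. Each shared its order of libraries, with knockdown replicate 2 highest and control replicate 2 lowest. MIDN, the nearest, was at 27.8 and 30.7 FPKM in the knockdown libraries, against 26.0 and 24.6 FPKM in the control libraries, with a log2 change of 0.20. The likeness is over 4 libraries and is a description only.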

How the data were processed

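Total RNA of 2 ARID1A knockdown and 2 control samples of HCT116 was sequenced, per the labels. For each library the authors deposited FPKM values, per the file headers, made with STAR and Cufflinks on GRCh38, per the submitters' processing notes. No version, annotation, read length, strand setting or filter could be taken from the labels. Of 60811 rows, 45 second copies of pseudoautosomal genes were dropped, and 2347 values under 1e-09 were set to 0. A value described above as listed at 0 was therefore either 0 or under 1e-09 as deposited. Loci are GRCh38 with 1 added to each start.

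FPKM values are not counts, so limma 3.58.1 in R 4.3.3 was fitted (lmFit, eBayes with a trend) to log2(FPKM + 1) of features with a mean of at least 1, over all 4 libraries, with Benjamini-Hochberg adjustment over all of them at 0.05. Fits without 1 library leave 1 group with a lone sample, assumed to vary like the other group. The total behind each library was estimated from genes with 1 transcript of at least 1500 bases, whose low values were whole within 0.1 fragment in 83.3% to 86.3% of cases. Replicates were not duplicates: 19 tested features in the knockdown and 18 in the control had identical values in both libraries.

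Sequences were read from GENCODE release 29 transcripts and RefSeq promoter windows, and aligned with Biopython 1.88. The transcript length used for weighting is the median over a gene's coding transcripts. The members and lists were chosen with earlier results of these data known. Genes named are the members, the metallothionein family, features overlapping a member, the 5 nearest profiles to MT2A, and from each list up to 3 called genes by absolute log2 change with at least 2 FPKM in the higher group. Outside this rule, the directions of SP1, HIF1A, GSS, PCBP2, KRT18 and CLDN7 were given after their values were seen. A result that the rule would name is not reported here.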

Additional observations from a re-analysis of the deposited data

How the results depend on the processing

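The number of changed features was 5046 and stayed within 1.5 times that under a pseudocount of 0.1, filters of 0.1 or 5 FPKM, quantile, median-ratio or mitochondria-free scaling and no trend. It was 2786 with no filter on low values, and 1900 to 3259 when 1 library was left out (lowest without control replicate 1 and highest without knockdown replicate 1); fewer samples enter those fits. The members past the threshold were 3 (MT1P3, SLC30A1 and SLC39A10), but 4 under a pseudocount of 0.1, a filter of 5 FPKM or quantile normalization, where MT2A was added. They were 5 after median-ratio scaling and 5 after rescaling without mitochondrial features, where MT2A and MT1X were added. Which members passed also varied when 1 library was left out. With the replicate number as a block the counts were 4126 features and 3 members, and the same 3 members passed. Same-numbered libraries did not vary together (correlation of their differences -0.0099 over tested features), so the numbers are not taken as pairs. ARID1A was at -0.78 to -0.60 when 1 library was left out and kept its call throughout. The share of MT1P3 among the metallothioneins in the controls averaged 1.04% of summed FPKM, 0.278% with FPKM weighted by transcript length, and 0.605% to 1.48% when 1 control was left out. MT1F reversed its log2 change to -0.18 without knockdown replicate 2 and to -0.0011 without control replicate 1, and was 0.26 without knockdown replicate 1. Where no cause is given above, the cause was not tested. Precision is limited by 2 libraries per group, and for MT1P3 by its length.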

Other observations

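ATP5MDP1, a short pseudogene outside the rule for named genes, is the mirror image of MT1P3: it was the only feature listed at 0 in both control libraries that had at least 10 FPKM in both knockdown libraries.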
